A study of Mus musculus with 18 samples.

Results

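MPP4 and MPP1 progenitors of control mouse bone marrow were compared across all genes. The comparison uses 6 of the 18 libraries of the series, 4 labelled MPP4 control and 2 labelled MPP1 control, chosen by population and genotype label alone. The whole series sorted HSC, MPP1 and MPP4 cells from lineage-negative marrow of controls and of mice with an altered Dnmt1, the enzyme that maintains DNA methylation. Transcripts were counted with CEL-Seq2, which primes at the poly(A) tail and tags each captured molecule, and cells went into lysis buffer with no RNA extraction step. Both control groups were wild type at Dnmt1 and of strain BALB/c, with no treatment given in the labels. A last comparison uses the 4 MPP4 and 2 MPP1 libraries labelled dnmt1-/-, also BALB/c, which by the series' design text carry a Dnmt1 mutation made after missense alleles of fish. Each library carries an ID number: MPP4 control 3 shares its number with MPP1 control 1, MPP4 control 4 shares its number with MPP1 control 2, and MPP4 controls 1 and 2 have numbers of their own among these 6. Nothing in the labels ties an ID number to an animal, and p-values below rest on the spread among libraries, part of which may be technical. Sorting gates, age and cell numbers are absent from the sources used here.

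Multipotent progenitors descend from haematopoietic stem cells and keep several blood fates while losing lasting self-renewal. In common usage MPP1 is the early compartment closest to the stem cell, marked by CD150 (Slamf1) and CD34 without CD48 or Flt3. MPP4 is the lymphoid-primed compartment, defined by the cytokine receptor Flt3 with CD48 and CD34 and without CD150. It gives rise to lymphocytes, dendritic cells and part of the myeloid cells.

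Total counts in the 6 libraries ran from 373963 to 1943562. Levels below are in CPM, counts per 1000000 of the library after TMM scaling, and differences are log2 MPP4 minus MPP1 from an edgeR fit with the ID number as a block. A value in brackets before an SE is such a difference. In that fit MPP4 control 2, the one library of its ID number, carries no weight in a fold change, and MPP4 control 1 enters through the HSC control library of its number. All MPP1 libraries are of batch C, while MPP4 controls 1 and 2 are of batches A and B. MPP4 control 4 and MPP1 control 2, which share an ID number, stood apart. Summed erythroid transcripts stood at 45720 CPM in MPP4 control 4 and between 708 and 1018 CPM in the other MPP4 libraries, against 32890 CPM in MPP1 control 2 and 1646 CPM in MPP1 control 1. Summed neutrophil markers likewise stood at 5525 CPM in MPP4 control 4 and between 10.1 and 17.7 CPM in the others, against 8308 CPM in MPP1 control 2 and 16.3 CPM in MPP1 control 1. In bulk libraries such as these, fewer cells of a type and less RNA per cell cannot be told apart.

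Of 10613 genes tested, 197 were higher and 183 lower in MPP4 at an adjusted p under 0.05, together 3.58% of the genes tested. The shares called were 1.86% higher and 1.72% lower, the background for the list counts below. A difference of over 2-fold was fitted for 184 of the higher and 167 of the lower genes, and one of over 4-fold for 89 and 75. All 4 MPP4 libraries lay above both MPP1 libraries in 170 of the 197 higher genes, against 9.38% of all tested genes, and below both in 164 of the 183 lower genes, against 9.64%. Within the shared ID numbers, 378 of the 380 had the same sign in both, the exceptions being Gimap8 and Mfsd2b, though the calls rest on these same libraries. The count depends on the ID block and on single libraries. It was 161 with no replicate block over all 18 libraries (149 of them among the 380), 199 with no block in the 6 control libraries and 221 with batch as the block. It was 94 without MPP1 control 1 (89 among the 380), 114 without MPP4 control 3 (106), 232 without MPP1 control 2 (201) and 279 without both MPP4 control 4 and MPP1 control 2 (215). DESeq2 called 200 genes, 191 of them among the 380.

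**Figure D1:**
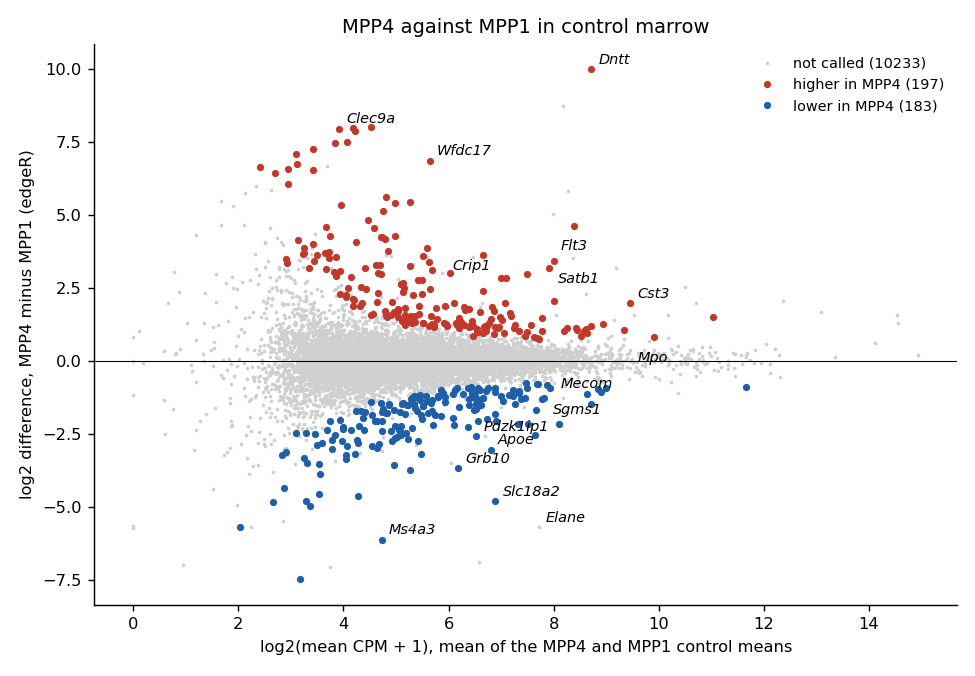
Each point is one of the 10613 tested genes, with log2(mean CPM + 1) of the MPP4 and MPP1 control means on the x axis and the fitted edgeR log2 difference (MPP4 minus MPP1) on the y axis. The 197 genes called higher in MPP4 (red) lie above 0 and the 183 called lower (blue) below it, and Mpo and Elane lie among the genes not called (grey).

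Of 8 genes commonly used to mark these populations 3 rose in MPP4 (Flt3, Cd48 and Cd34) and 2 fell (Slamf1 and Procr). The shares over all tested genes were 1.86% called higher and 1.72% called lower. Where the sort used such a gene, its difference may follow from the gate. Cd34, by common usage a marker of both MPP1 and MPP4, was higher in MPP4. Flt3, the receptor tyrosine kinase of the usual MPP4 gate (GRCm38 chromosome 5, 147330741 to 147400489, minus strand), stood at 459, 507, 507 and 402 CPM in MPP4 libraries 1 to 4, against 44.5 and 36.8 CPM in MPP1 libraries 1 and 2. The MPP4 libraries lay close together and far above both MPP1 libraries (3.42, SE 0.37, adjusted p = 3.73e-05). Cd48, a ligand of the SLAM receptor family, stood at 119, 233, 110.5 and 68.3 CPM in MPP4 and 37.8 and 11 CPM in MPP1. Cd48 differed by 1.73 on the log2 scale (SE 0.33, adjusted p = 0.000728). Cd34, a sialomucin of early progenitors, differed (1.26, SE 0.28, adjusted p = 0.00733) and stood at 687, 531, 992 and 490.2 CPM in MPP4 and 272 and 331 CPM in MPP1. Slamf1, which encodes CD150, stood at 4.27, 0.887, 0 and 12.1 CPM in MPP4 and 51.9 and 60.7 CPM in MPP1. Slamf1 differed by −3.58 on the log2 scale (SE 0.65, adjusted p = 0.00237). Procr, a stem cell surface receptor also called EPCR, stood at 34.8, 24.8, 16.3 and 8.04 CPM in MPP4 and 71.9 and 46.0 CPM in MPP1. Procr differed by −1.63 on the log2 scale (SE 0.38, adjusted p = 0.00884). Kit, the stem cell factor receptor, had a difference of −0.68 (adjusted p = 0.0511), and Ly6a, which encodes Sca-1, one of −0.90 (adjusted p = 0.103). Dnmt1 itself stood at 240.0, 324, 346 and 402 CPM in MPP4 and 296 and 289 CPM in MPP1. Dnmt1 differed by 0.45 on the log2 scale (SE 0.23, adjusted p = 0.436). Lost from these calls were Cd34, Slamf1 and Procr without MPP4 control 3 (adjusted p 0.0603 to 0.445), and Cd48, Cd34, Slamf1 and Procr without MPP1 control 1 (adjusted p 0.0665 to 0.542). Over all 18 libraries with no block Cd48, Cd34 and Procr (adjusted p 0.169 to 0.223) did not pass and Ly6a turned to 0.16, and in DESeq2 Slamf1 (adjusted p 0.0749) did not pass, nor with batch as the block did Cd48 and Procr (adjusted p 0.0601 to 0.268), while Flt3 held in all 20 alternatives.

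**Figure D2:**
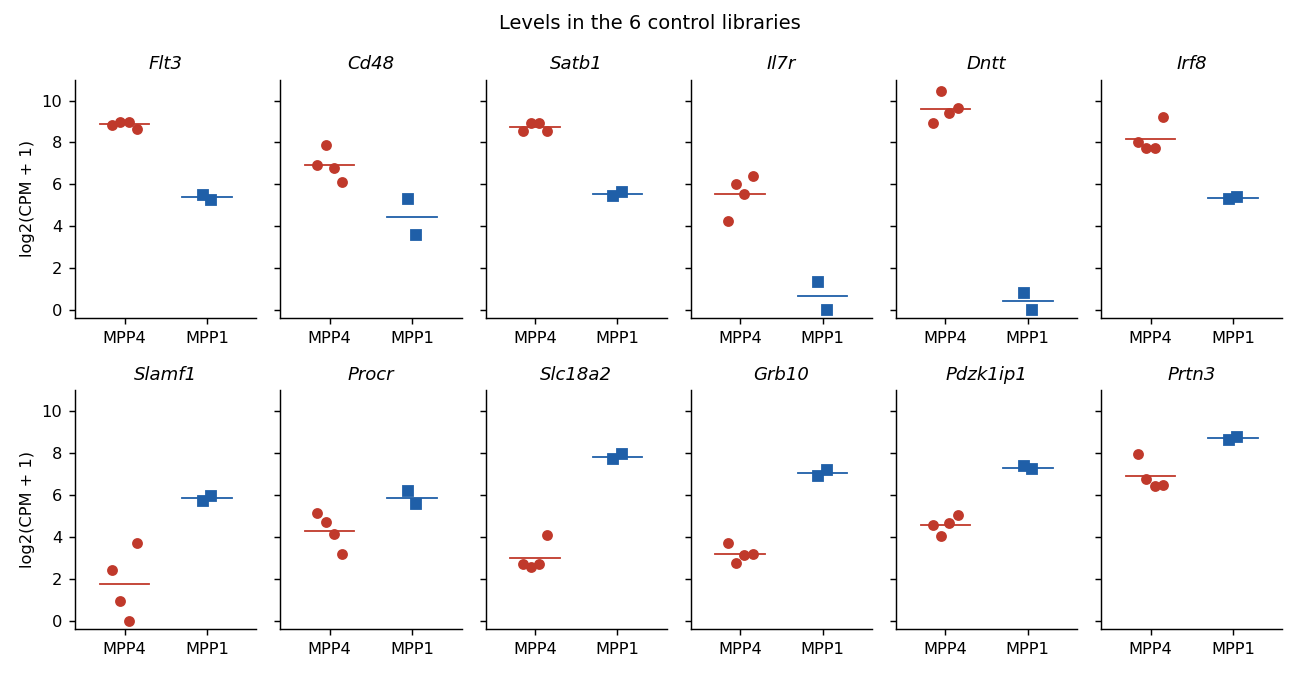
Level of 12 genes in each control library as log2(CPM + 1), with 4 MPP4 libraries (red circles) left of 2 MPP1 libraries (blue squares) and the mean of the log values as a line. The MPP4 libraries lie above both MPP1 libraries for the first 6 genes and below them for the last 6.

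The promoters of Flt3 and Dntt, higher in MPP4, and of Slc18a2 and Pdzk1ip1, lower in MPP4, are shown because these genes each have a single listed start and stand among the clearest differences in either direction. The sequences are the 250 bases before the start, from RefSeq on GRCm38.p6, written 5′ to 3′ on the gene's strand. Capitals mark matches to 4 motifs searched on both strands. AGATAA is a core bound by GATA factors. The letters GAGGAA are an ETS core of the PU.1 type. An E-box was searched as CAGGTG. For Runx factors the core was TGTGGTT.
Flt3, chr5:147400490-147400739, minus strand: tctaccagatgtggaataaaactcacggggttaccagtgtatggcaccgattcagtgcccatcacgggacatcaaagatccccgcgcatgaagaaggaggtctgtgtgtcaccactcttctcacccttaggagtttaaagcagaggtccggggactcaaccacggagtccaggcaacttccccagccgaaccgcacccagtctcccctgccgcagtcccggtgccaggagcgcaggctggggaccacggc
Dntt, chr19:41029025-41029274, plus strand: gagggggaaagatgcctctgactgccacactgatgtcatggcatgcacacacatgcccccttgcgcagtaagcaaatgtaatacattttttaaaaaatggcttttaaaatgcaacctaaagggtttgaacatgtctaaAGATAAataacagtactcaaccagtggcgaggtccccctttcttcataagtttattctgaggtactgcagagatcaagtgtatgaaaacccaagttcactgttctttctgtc
Slc18a2, chr19:59260628-59260877, plus strand: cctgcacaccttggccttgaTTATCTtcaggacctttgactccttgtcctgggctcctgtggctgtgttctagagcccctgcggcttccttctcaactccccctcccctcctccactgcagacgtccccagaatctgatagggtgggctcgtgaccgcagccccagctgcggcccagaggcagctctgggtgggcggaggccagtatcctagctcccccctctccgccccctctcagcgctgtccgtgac
Pdzk1ip1, chr4:115088458-115088707, plus strand: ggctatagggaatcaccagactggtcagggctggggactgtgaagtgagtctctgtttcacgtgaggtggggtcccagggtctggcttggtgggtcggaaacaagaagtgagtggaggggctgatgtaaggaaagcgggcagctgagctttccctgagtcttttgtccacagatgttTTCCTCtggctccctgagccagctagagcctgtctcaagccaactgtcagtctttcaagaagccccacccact
No motif lay in the Flt3 window, AGATAA lay once in that of Dntt and, as its reverse complement TTATCT, once in that of Slc18a2, and GAGGAA lay once, as TTCCTC, in that of Pdzk1ip1. RefSeq promoters could be matched to 140 of the 197 higher and 124 of the 183 lower genes, with 197 and 167 starts. AGATAA occurred in 8.12% of the promoters of higher genes and 9.58% of those of lower genes, against 5.69% of the promoters of all tested genes and 9.99% of all listed promoters. GAGGAA occurred in 26.4% of the promoters of higher and 29.9% of those of lower genes, against 22.5% of tested and 23.3% of all. CAGGTG occurred in 16.8% of the promoters of higher and 13.8% of those of lower genes, against 14.7% of tested and 17.2% of all. TGTGGTT occurred in 6.60% of the promoters of higher and 2.99% of those of lower genes, against 3.23% of tested and 4.40% of all. These shares are a description of the letters in the windows, with no test.

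Members of both lymphoid lists rose in MPP4 and none fell. The first list holds transcription factors. The second holds receptors and recombination enzymes of early lymphocytes, with further genes such as Cd53 and Il12a. Both were chosen with earlier results of these data known, so their counts of calls are a description. Of 23 tested genes of the receptor and recombination list 11 rose and none fell (15 and 1 at an unadjusted p under 0.05, 8 and 0 in DESeq2), with a median log2 difference of 1.97, against 0.01 over all tested genes, of which 1.86% rose. Satb1, a chromatin organiser of lymphoid progenitors, stood at 371, 494, 486 and 378 CPM in MPP4 libraries 1 to 4, against 43.0 and 47.8 CPM in MPP1 libraries 1 and 2. Satb1 differed by 3.16 on the log2 scale (SE 0.27, adjusted p = 6.53e-10), the smallest adjusted p among the higher genes. Dntt, the terminal transferase that adds bases at antigen receptor joints, stood at 492, 1393, 677 and 792 CPM in MPP4 and 0.741 and 0 CPM in MPP1. It had 5014 pooled counts in MPP4 and 1 in MPP1, a ratio of 1750 (95% counting interval 314 to 69100), where the interval covers counting error only. Il7r, the receptor chain for the main lymphoid growth factor, stood at 17.7, 64.3, 45.9 and 84.4 CPM in MPP4 and 1.48 and 0 CPM in MPP1, with 254 pooled counts in MPP4 and 2 in MPP1 and a ratio of 44.3 (95% counting interval 12.1 to 368). Rag1, a subunit of the recombinase that cuts antigen receptor genes, stood at 5.50, 52.3, 28.0 and 52.2 CPM in MPP4 and 0 and 0 CPM in MPP1. With no count in MPP1 it was at least 20.5-fold higher, taking 3 counts over the group as the floor. Its partner Rag2 had 108 pooled counts in MPP4 and 2 in MPP1, a ratio of 18.8 (95% counting interval 5.09 to 158). The B cell adaptor Blnk had 275 pooled counts in MPP4 and 3 in MPP1, a ratio of 32 (95% counting interval 10.8 to 156). Dntt, Il7r, Rag1, Rag2 and Blnk had at most 3 pooled counts in MPP1, so a fall in them could hardly have been measured. On leaving out MPP4 control 2 the ratios were 1120 for Dntt, 12.2 for Rag2 and 15.9 for Blnk and the lower bound was 11.5 for Rag1, and without MPP1 control 1 the lower bounds were 167 for Dntt, 8.48 for Il7r, 5.87 for Rag1 and 3.60 for Rag2. Of these calls Rag2 and Blnk without MPP4 control 3 (adjusted p 0.0554 to 0.654), Rag2 without MPP1 control 1 (adjusted p 0.568), Rag2 without MPP1 control 2 (adjusted p 0.1000), Rag2 without MPP4 control 4 (adjusted p 0.0632), Rag2 without MPP4 control 1 (adjusted p 0.0571), Rag2 without MPP4 control 2 (adjusted p 0.0804), and Rag2 without HSC control 2 (adjusted p 0.0538) were lost, as were Il7r and Rag2 (adjusted p 0.0782 to 0.123) with no block over all 18 libraries, Blnk (adjusted p 0.110) with batch as the block and Rag1, Il7r and Rag2 (adjusted p 0.196 to 0.333) in DESeq2. Satb1 and Dntt held in all 20 alternatives.

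Further members of the receptor and recombination list that rose were Cd53, a tetraspanin of leukocytes (212, 361, 153 and 189 CPM in MPP4 and 40.8 and 35 CPM in MPP1; 1.97, SE 0.28, adjusted p = 2.17e-05), and Il12a, the p35 chain of interleukin 12 (116, 339, 146 and 108 CPM in MPP4 and 37.8 and 9.20 CPM in MPP1; 2.37, SE 0.31, adjusted p = 6.52e-06). Evl, an actin regulator (2.29), Cnn3, a calponin (2.97), and Lsp1, an actin-binding protein of lymphocytes (1.21), rose too. Of 19 tested lymphoid transcription factors 7 rose and none fell (9 and 2 unadjusted, 6 and 0 in DESeq2), with a median of 0.56. The share of all tested genes called higher was 1.86%. Gata3, a factor of T and innate lymphoid cells (−1.52), and the Ikaros family factor Ikzf4 (−4.59) were called lower. Neither is on this list, and both are described further below. Notch1, the receptor that drives T cell commitment, stood at 136, 229, 197 and 161 CPM in MPP4 and 51.9 and 38.6 CPM in MPP1. Notch1 differed by 1.85 on the log2 scale (SE 0.29, adjusted p = 6.61e-05). Ebf1, which commits cells to the B lineage, stood at 4.88, 47.0, 49.0 and 100.5 CPM in MPP4 and 1.48 and 1.84 CPM in MPP1, with 202 pooled counts in MPP4 and 3 in MPP1 and a ratio of 23.5 (95% counting interval 7.92 to 115). Smaller differences were fitted for Ikzf1, the zinc-finger factor Ikaros (1.0, SE 0.23), the E protein Tcf4 (1.02, SE 0.22), Mef2c (0.93, SE 0.24) and Sox4 (0.81, SE 0.23), and the groups overlapped in Mef2c and Sox4. From these further lymphoid genes the calls lost were Cnn3, Lsp1, Ebf1, Ikzf1, Tcf4, Mef2c and Sox4 without MPP4 control 3 (adjusted p 0.0554 to 0.399), Cnn3, Lsp1, Ebf1, Ikzf1, Mef2c and Sox4 without MPP1 control 1 (adjusted p 0.0742 to 0.347), Cnn3, Ebf1, Ikzf1, Tcf4, Mef2c and Sox4 without MPP1 control 2 (adjusted p 0.0608 to 0.238), and Sox4 without MPP4 control 4 (adjusted p 0.106). Fitted to all 18 libraries with no block Cnn3, Lsp1, Ebf1, Ikzf1, Tcf4, Mef2c and Sox4 (adjusted p 0.0875 to 0.921) did not pass. Batch as the block ended the calls of Cnn3, Lsp1, Ebf1 and Sox4 (adjusted p 0.0602 to 0.298). Not called by DESeq2 was Ebf1 (adjusted p 0.172). Notch1, Cd53 and Evl held in all 20 alternatives.

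Ighm, which encodes the heavy chain of IgM, was chosen after its values were seen. Ighm stood at 324, 711, 353 and 1041 CPM in MPP4 and 2.96 and 14.7 CPM in MPP1, with no overlap, but did not pass (5.81, SE 3.15, adjusted p = 0.565), and passed in 4 of 20 alternatives. HSC control 1, which shares its ID number with MPP4 control 1 and is part of the fit, held 35450 CPM of B cell markers. Summed B cell markers stood between 740 and 4067 CPM in MPP4, the highest in MPP4 control 4, against 355 and 379 CPM in MPP1. The antibody light chain gene Igkc stood at 24.4, 13.7, 1.56 and 2274 CPM in MPP4 and 0.741 and 0 CPM in MPP1, so that MPP4 control 4 stood alone. Cd79a, a defining marker of B cells, reached at most 4.02 CPM in any of the 6 libraries. Of 9 tested B cell markers 2 were called, Ebf1 and Rag1, which early lymphoid progenitors express too. The part of B cells in the lymphoid differences was not tested beyond these values.

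Around Satb1 on the minus strand of GRCm38 chromosome 17 (51736187 to 51833290), unspliced gene models inside the gene rose with it. C230085N15Rik (51757295 to 51761621) stood at 74.5, 60.7, 104 and 108 CPM in MPP4 and 5.93 and 9.20 CPM in MPP1 (3.86, SE 0.42, adjusted p = 1.33e-07), and 5830444F18Rik (51791470 to 51793461) at 72.7, 98.4, 102 and 84.4 CPM in MPP4 and 8.89 and 7.36 CPM in MPP1. 5830444F18Rik differed by 3.39 on the log2 scale (SE 0.44, adjusted p = 4.03e-06). E430014B02Rik (51745529 to 51748684) had a difference of 3.27. Gm37248 (51796017 to 51799190) had 186 pooled counts in MPP4 and 1 in MPP1, a ratio of 64.9 (95% counting interval 11.5 to 2580). All 4 are annotated in GENCODE vM21 as models still to be experimentally tested and lie on Satb1's strand within its span, so their reads cannot be told apart from Satb1 transcript and are uncertain as genes of their own. Gm36931, also inside Satb1, had 14 pooled counts in MPP4 and 0 in MPP1 and was not tested. Among the 4 models, calls lost were Gm37248 without MPP4 control 3 (adjusted p 0.123), and Gm37248 and E430014B02Rik without MPP1 control 1 (adjusted p 0.0974 to 0.234). Without MPP4 control 2 the ratio was 41.2 for Gm37248, and without MPP1 control 1 the lower bound was 6.21 for Gm37248.

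**Figure D3:**
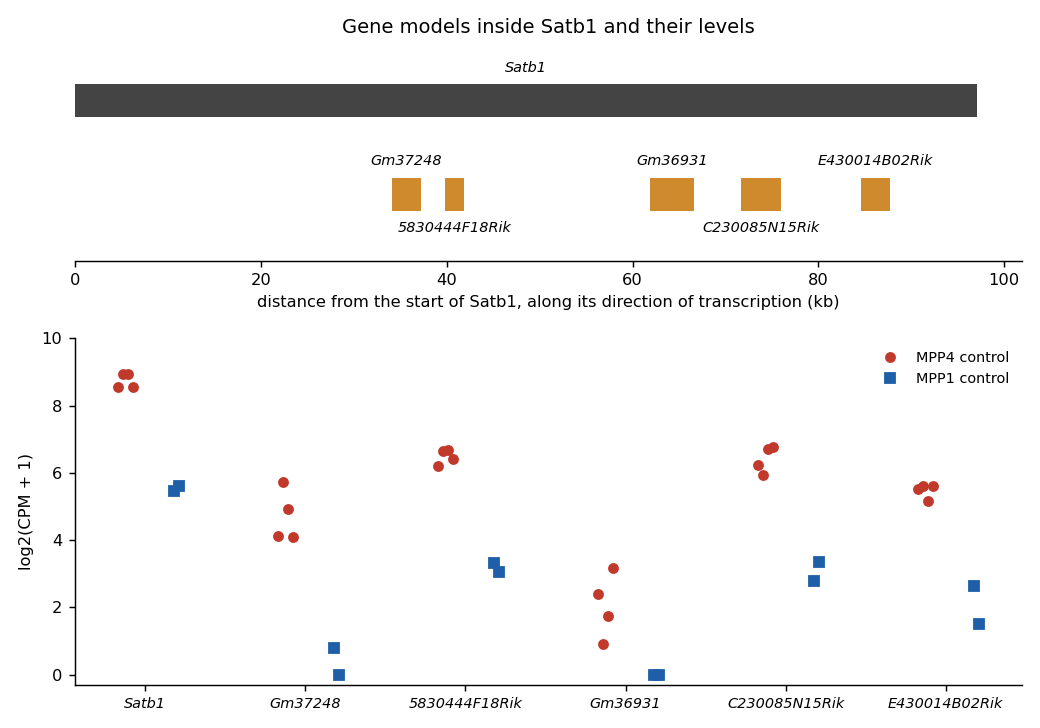
Top, the span of Satb1 and of 5 gene models inside it by distance from the start of Satb1 in kb; bottom, log2(CPM + 1) of each in the 4 MPP4 (red circles) and 2 MPP1 control libraries (blue squares). In each of the 6 models all MPP4 libraries lie above both MPP1 libraries.

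Of 12 tested dendritic cell markers 8 rose and none fell (9 and 0 unadjusted, 4 and 0 in DESeq2), against 1.86% of all tested genes called higher, with a median of 4.43, or 3.19 with the genes lacking a count in MPP1 at their bound, and 5 of the 12 had no count in MPP1. Flt3, Tcf4 and the homing receptor Ccr9, described with other lists, are 3 of the 8. Irf8, a transcription factor of dendritic and monocyte fate, stood at 257, 209, 211 and 599 CPM in MPP4 libraries 1 to 4, against 38.5 and 40.5 CPM in MPP1 libraries 1 and 2. MPP4 control 4 was the highest, and the other MPP4 libraries still lay far above both MPP1 libraries (2.97, SE 0.3, adjusted p = 2.83e-05). Clec9a, a receptor for dead cells on type 1 dendritic cells, stood at 30.5, 6.65, 31.9 and 44.2 CPM in MPP4 and 0 and 0 CPM in MPP1 and was at least 13.6-fold higher. Xcr1, a chemokine receptor of the same cells, had 202 pooled counts in MPP4 and 3 in MPP1, a ratio of 23.5 (95% counting interval 7.92 to 115). Its level was 48.8, 14.6, 30.4 and 201 CPM in MPP4 and 2.22 and 0 CPM in MPP1, most of it in MPP4 control 4. The integrin Itgax, which encodes CD11c, was at least 15.2-fold higher, and Cox6a2, a subunit of the respiratory chain, at least 14.9-fold. Cox6a2 stood at 4.88, 44.8, 11.7 and 16.1 CPM in MPP4 and 0 and 0 CPM in MPP1, highest in MPP4 control 2. On leaving out MPP4 control 2 the lower bounds were 9.75 for Itgax and 5.37 for Cox6a2, and without MPP1 control 1 the lower bounds were 3.91 for Clec9a, 6.74 for Xcr1, 4.37 for Itgax and 4.27 for Cox6a2. Clec9a, Itgax, Cox6a2 and Ccr9 had no count in MPP1 and so passed the count filter through MPP4, and a fall could not have been measured. The summed dendritic markers stood between 1431 and 2049 CPM in MPP4, against 723 and 410.3 CPM in MPP1. Flt3, Tcf4 and Irf8 were the most abundant called members and weigh most in this sum. Tcf4 stood at 393, 387, 672 and 482 CPM in MPP4 and 353 and 208 CPM in MPP1. The plasmacytoid marker Siglech reached at most 8.04 CPM in any of the 6 libraries, and Cd209a, a marker of monocyte-derived dendritic cells, had no count in MPP4 controls 2 to 4. The part of dendritic cells among the sorted MPP4 cells was not tested. Dendritic calls lost were Cox6a2, Tcf4 and Ccr9 without MPP4 control 3 (adjusted p 0.104 to 0.336), Cox6a2 and Ccr9 without MPP1 control 1 (adjusted p 0.280 to 0.287), and Tcf4 without MPP1 control 2 (adjusted p 0.238). When the ID block was dropped over all 18 libraries Clec9a, Xcr1, Cox6a2 and Tcf4 (adjusted p 0.130 to 0.611) did not pass, with batch as the block Irf8, Clec9a, Xcr1, Cox6a2 and Ccr9 (adjusted p 0.0566 to 0.408) did not, and in DESeq2 Clec9a, Xcr1, Cox6a2 and Ccr9 (adjusted p 0.132 to 1.0) did not, while Itgax passed wherever it was tested.

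Among 23 tested myeloid factors and receptors 4 rose and 1 fell (9 and 2 unadjusted, 3 and 1 in DESeq2), with a median of 1.03. All tested genes gave shares of 1.86% called higher and 1.72% called lower. Wfdc17, a secreted antiprotease of myeloid cells, stood at 159, 62.5, 79.4 and 88.4 CPM in MPP4 and 0.741 and 0 CPM in MPP1, with 525 pooled counts in MPP4 and 1 in MPP1 and a ratio of 183 (95% counting interval 32.7 to 7250). Id2, an inhibitor of E proteins in innate lymphoid and dendritic fates, stood at 51.9, 31.9, 59.2 and 121 CPM in MPP4 and 6.67 and 11 CPM in MPP1. Id2 differed by 3.23 on the log2 scale (SE 0.43, adjusted p = 6.09e-06). Mpeg1, a pore-forming protein of macrophages and dendritic cells, stood at 188, 153, 118 and 281 CPM in MPP4 and 11.1 and 16.6 CPM in MPP1. Mpeg1 differed by 3.61 on the log2 scale (SE 0.42, adjusted p = 2.24e-05). Trem3, a myeloid receptor, was the member that fell, with 2 pooled counts in MPP4 and 31 in MPP1, and an MPP1 to MPP4 ratio of 44.4 (95% counting interval 11.3 to 383). Of 18 tested granule genes 2 fell and none rose (5 and 1 unadjusted, 3 and 0 in DESeq2), with a median of −0.75. Prtn3, a protease of primary granules, stood at 245, 106, 85.6 and 88.4 CPM in MPP4 and 389.7 and 443 CPM in MPP1. Prtn3 differed by −2.17 on the log2 scale (SE 0.29, adjusted p = 8.54e-05). Ms4a3, a marker of granulocyte and monocyte progenitors, stood at 2.44, 0, 0 and 0 CPM in MPP4 and 63.7 and 36.8 CPM in MPP1, with no count in 3 of the 4 MPP4 libraries (−6.14, SE 0.82, adjusted p = 7.66e-06). Elane, the neutrophil elastase gene, stood at 47.6, 3.10, 0.778 and 0 CPM in MPP4 and 688 and 123 CPM in MPP1 and did not pass (−5.70, SE 2.61, adjusted p = 0.457), though the groups did not overlap and it passed in 2 of 20 alternatives, DESeq2 being one. Mpo, which encodes myeloperoxidase, stood at 579, 672, 947 and 338 CPM in MPP4 and 872 and 655 CPM in MPP1 and overlapped between the groups (−0.25, SE 1.53, adjusted p = 0.984). In both populations the neutrophil marker Ngp had no count in 3 libraries in all and stood at 410 CPM in MPP4 control 4 and 948 CPM in MPP1 control 2, and 0 of 14 neutrophil markers were called in edgeR, with 0 at an unadjusted p under 0.05 and 0 in DESeq2. Myeloid calls lost were Trem3 without MPP4 control 3 (adjusted p 0.301), Trem3 and Ms4a3 without MPP1 control 1 (adjusted p 0.0749 to 0.519), and Trem3 without MPP1 control 2 (adjusted p 0.0551). Fitted to all 18 libraries with no block Mpeg1, Trem3 and Prtn3 (adjusted p 0.0604 to 0.457) did not pass, and Mpeg1 (adjusted p 0.110) with batch as the block and Mpeg1 (adjusted p 0.182) in DESeq2 did not either. Without MPP1 control 1 the lower bound was 17.5 for Wfdc17. Wfdc17 and Id2 passed in all the alternatives that tested them.

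Markers of other mature cells gave few calls. Of 5 tested markers of NK and innate lymphoid cells Gata3, a zinc-finger factor of T and innate lymphoid cells, fell, and stood at 12.8, 7.98, 19.5 and 20.1 CPM in MPP4 and 54.1 and 62.6 CPM in MPP1 (−1.52, SE 0.33, adjusted p = 0.00395). Of 7 monocyte and macrophage markers Ccr2 rose and Ms4a6c, a membrane protein of monocytes, fell, standing at 18.3, 8.42, 7.78 and 8.04 CPM in MPP4 and 31.9 and 40.5 CPM in MPP1 (−2.05, SE 0.51, adjusted p = 0.0131). Of 2 tested mast cell and basophil markers Gata2 fell. In edgeR 0 of 4 T cell markers were called (0 unadjusted, 0 in DESeq2), 0 of 4 plasma cell markers (1 higher unadjusted, 0 in DESeq2) and 0 of 4 endothelial markers (1 higher and 2 lower unadjusted, 0 in DESeq2). Summed T cell markers stood between 118.5 and 317.4 CPM in MPP4, against 115.6 and 88.32 CPM in MPP1. From these lists the calls lost were Gata3, Ccr2, Gata2 and Ms4a6c without MPP4 control 3 (adjusted p 0.0550 to 0.236), Gata3, Gata2 and Ms4a6c without MPP1 control 1 (adjusted p 0.270 to 0.326), Gata2 and Ms4a6c without MPP1 control 2 (adjusted p 0.0956 to 0.198), Gata2 without MPP4 control 4 (adjusted p 0.0596), and Gata2 without HSC control 2 (adjusted p 0.0722). No block over all 18 libraries ended the calls of Ccr2 and Ms4a6c (adjusted p 0.0875 to 0.334), batch as the block that of Ccr2 (adjusted p 0.344), and DESeq2 that of Ccr2 and Ms4a6c (adjusted p 0.0664 to 0.148).

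MHC class II genes, which present antigen on dendritic and B cells, had a positive difference in 10 of 10 tested members. Of these 5 rose (9 unadjusted, 5 in DESeq2), with a median of 3.07. Among all 10613 tested genes 5374 had a positive difference and 1.86% were called higher. H2-Eb1, a class II beta chain, stood at 645, 379, 427 and 1125 CPM in MPP4 and 19.3 and 33.1 CPM in MPP1. H2-Eb1 differed by 4.61 on the log2 scale (SE 0.86, adjusted p = 0.0436). H2-DMb1, part of the peptide editor, stood at 58.0, 26.2, 31.9 and 56.3 CPM in MPP4 and 3.70 and 7.36 CPM in MPP1 (2.98, SE 0.51, adjusted p = 0.000226), and H2-Ob, part of its inhibitor, at 21.4, 30.6, 20.2 and 24.1 CPM in MPP4 and 2.22 and 3.68 CPM in MPP1. H2-Ob differed by 2.88 on the log2 scale (SE 0.70, adjusted p = 0.0112). H2-DMa was higher by 1.21. Ciita, the master activator of class II genes, had 61 pooled counts in MPP4 and 2 in MPP1, a ratio of 10.6 (95% counting interval 2.82 to 89.8). Abundant members were among those that did not pass, although the groups did not overlap in H2-Aa, Cd74 or H2-Ab1. H2-Aa stood at 1256, 665, 723 and 1595 CPM in MPP4 and 102 and 105 CPM in MPP1. H2-Aa differed by 3.17 on the log2 scale (SE 0.87, adjusted p = 0.160). Cd74, the invariant chain, stood at 694, 170.2, 443 and 659 CPM in MPP4 and 10.4 and 14.7 CPM in MPP1 (5.03, SE 1.56, adjusted p = 0.212), and H2-Ab1 had a difference of 3.51 (adjusted p = 0.112). Each of these 3 passed in 5 of 20 alternatives. The class II calls lost were H2-Eb1, H2-DMb1, H2-Ob, H2-DMa and Ciita without MPP4 control 3 (adjusted p 0.0554 to 0.565), H2-Eb1, H2-DMb1, H2-Ob, H2-DMa and Ciita without MPP1 control 1 (adjusted p 0.0983 to 0.462), H2-Eb1, H2-Ob and Ciita without MPP1 control 2 (adjusted p 0.0577 to 0.322), H2-Eb1 and Ciita without MPP4 control 4 (adjusted p 0.137 to 0.225), H2-Eb1 and Ciita without MPP4 control 1 (adjusted p 0.0659 to 0.0667), H2-Eb1 without HSC control 1 (adjusted p 0.0731), H2-Eb1 and Ciita without HSC control 2 (adjusted p 0.0623 to 0.0686), and H2-Eb1 without HSC control 3 (adjusted p 0.0862). With no block over all 18 libraries H2-DMb1, H2-DMa and Ciita (adjusted p 0.0622 to 0.167) did not pass. DESeq2 did not call H2-Ob, H2-DMa and Ciita (adjusted p 0.0642 to 0.133), and batch as the block ended the calls of H2-Eb1, H2-DMb1, H2-DMa and Ciita (adjusted p 0.0525 to 0.138). On leaving out MPP1 control 1 the lower bound was 2.04 for Ciita. Of 19 class I genes H2-T23 alone passed, lower in MPP4 (−1.32) with overlapping groups, and it was lost without MPP4 control 3 (adjusted p 0.104) or MPP1 control 2 (0.300), and with no block over all 18 libraries (0.930) or in the 6 controls (0.854).

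Homing receptors and adhesion molecules split. Of 24 tested 6 rose and 4 fell (11 and 4 unadjusted, 3 and 3 in DESeq2), with a median of 0.42. By comparison, 1.86% of all tested genes were called higher and 1.72% lower. Ccr9, the chemokine receptor that guides progenitors to the thymus and gut, stood at 17.1, 91.8, 46.7 and 20.1 CPM in MPP4 and 0 and 0 CPM in MPP1 and was at least 34.9-fold higher. Ccr2, a receptor for monocyte chemoattractants, stood at 33.6, 8.87, 52.9 and 92.4 CPM in MPP4 and 2.96 and 3.68 CPM in MPP1. Ccr2 differed by 4.25 on the log2 scale (SE 0.65, adjusted p = 0.000117). Itgal, the alpha chain of the leukocyte integrin LFA-1, stood at 62.9, 74.5, 89.5 and 80.4 CPM in MPP4 and 11.1 and 11 CPM in MPP1. Itgal differed by 2.76 on the log2 scale (SE 0.46, adjusted p = 0.000266). Emb, an adhesion protein of the immunoglobulin family (1.44, SE 0.26), Itgb7, a gut-homing integrin chain (2.18, SE 0.57), and Cd44, the hyaluronan receptor (1.06, SE 0.21), also rose. Those that fell were Esam, an endothelial-type adhesion molecule of stem cells (−2.69, SE 0.39, adjusted p = 2.56e-05), Itga2b, the platelet integrin CD41 (−2.76, SE 0.54, adjusted p = 0.00191), Itga6 (−1.19, SE 0.22) and the junction protein Jam3 (−2.07, SE 0.57). Homing calls lost were Ccr9, Ccr2, Itgal, Emb, Itgb7, Cd44, Itga2b, Itga6 and Jam3 without MPP4 control 3 (adjusted p 0.0550 to 0.467), Ccr9, Itgal, Itgb7, Cd44, Itga6 and Jam3 without MPP1 control 1 (adjusted p 0.0632 to 0.533), and Emb, Itgb7 and Jam3 without MPP1 control 2 (adjusted p 0.0563 to 0.0993). Over all 18 libraries with no block Ccr2, Cd44, Itga6 and Jam3 (adjusted p 0.0564 to 0.334) did not pass. Not called by DESeq2 were Ccr9, Ccr2, Itgb7 and Jam3 (adjusted p 0.0664 to 0.233), and not called with batch as the block were Ccr9, Ccr2 and Jam3 (adjusted p 0.0927 to 0.344). Without MPP4 control 2 the lower bound was 18.5 for Ccr9, and without MPP1 control 1 the lower bound was 10 for Ccr9. Esam held in all 20 alternatives.

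Genes of stem cell identity lay lower in MPP4, and of 38 tested 18 fell and none rose (28 and 0 unadjusted, 15 and 0 in DESeq2), with a median of −1.50, against 1.72% of all tested genes called lower. Pdzk1ip1, a small membrane protein of stem cells also called MAP17, stood at 22.6, 15.5, 24.1 and 32.1 CPM in MPP4 libraries 1 to 4, against 168 and 149 CPM in MPP1 libraries 1 and 2. Esam stood at 7.33, 5.32, 10.9 and 4.02 CPM in MPP4 and 65.2 and 66.2 CPM in MPP1. Mllt3, a regulator of stem cell maintenance, stood at 56.8, 42.1, 71.6 and 113 CPM in MPP4 and 277 and 189.5 CPM in MPP1. Mllt3 differed by −1.50 on the log2 scale (SE 0.24, adjusted p = 8.04e-05). Mecom, the transcription factor Evi1, stood at 101, 41.7, 149 and 221 CPM in MPP4 and 337 and 381 CPM in MPP1 (−0.93, SE 0.23, adjusted p = 0.0116), and the zinc-finger factor Gata2 at 61.7, 51.9, 60.7 and 32.1 CPM in MPP4 and 385 and 313 CPM in MPP1. Gata2 differed by −2.55 on the log2 scale (SE 0.48, adjusted p = 0.0235). Mycn (−1.52, SE 0.30), the niche ligand Angpt1 (−1.13, SE 0.26), Socs2, a brake on cytokine signalling (−2.06, SE 0.38), Trim47 (−2.40, SE 0.41) and Txnip, a stress-responsive inhibitor of thioredoxin (−1.08, SE 0.23), fell as well. Meis1 (−0.42, SE 0.20, adjusted p = 0.383) and Hlf (−0.23, SE 0.23, adjusted p = 0.797), a pair of transcription factors of stem cells, did not pass, and the groups overlapped in Hlf. The list held 4 calls without MPP4 control 3 and 4 without MPP1 control 1, and of the genes named here those lost were Mecom, Gata2, Mycn, Angpt1, Socs2, Trim47 and Txnip without MPP4 control 3 (adjusted p 0.0645 to 0.236), Mllt3, Mecom, Gata2, Mycn, Angpt1, Socs2 and Txnip without MPP1 control 1 (adjusted p 0.105 to 0.486), Gata2 and Angpt1 without MPP1 control 2 (adjusted p 0.158 to 0.198), Mecom, Gata2 and Angpt1 without MPP4 control 4 (adjusted p 0.0506 to 0.0740), and Gata2 without HSC control 2 (adjusted p 0.0722). Fitted to all 18 libraries with no block Mecom, Mycn, Angpt1 and Txnip (adjusted p 0.0579 to 0.557) did not pass, and with batch as the block Mecom, Mycn, Angpt1 and Txnip (adjusted p 0.0951 to 0.358) did not, while Pdzk1ip1 and Esam held in all 20 alternatives.

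Platelet-lineage genes were lower too. Of 19 tested megakaryocyte and platelet genes 8 fell and none rose (13 and 0 unadjusted, 5 and 0 in DESeq2), with a median of −1.47. The share of all tested genes called lower was 1.72%. In 17 of the 19 every MPP4 library lay below both MPP1 libraries, against 9.64% of all tested genes. Mmrn1, a platelet granule protein, stood at 6.11, 19.1, 21.0 and 16.1 CPM in MPP4 and 86.7 and 58.9 CPM in MPP1 (−2.0, SE 0.39, adjusted p = 0.00110), and Itga2b at 4.88, 5.76, 5.45 and 8.04 CPM in MPP4 and 34.8 and 69.9 CPM in MPP1. Smaller differences were fitted for the transcription factor Nfe2 (−0.96, SE 0.21), the cofactor Zfpm1 (−1.47, SE 0.35) and the tetraspanin Cd9 (−1.39, SE 0.34), and Gp5, a platelet glycoprotein, had a difference of −2.50 at levels of at most 15.6 CPM. Of the platelet-lineage calls named here, those lost were Mmrn1, Itga2b, Zfpm1, Cd9 and Gp5 without MPP4 control 3 (adjusted p 0.114 to 0.560), Mmrn1, Cd9 and Gp5 without MPP1 control 1 (adjusted p 0.117 to 0.448), Nfe2, Zfpm1, Cd9 and Gp5 without MPP1 control 2 (adjusted p 0.116 to 0.404), Gp5 without MPP4 control 4 (adjusted p 0.100), Gp5 without HSC control 2 (adjusted p 0.0819), and Gp5 without HSC control 3 (adjusted p 0.0507). When the ID block was dropped over all 18 libraries Mmrn1, Nfe2, Zfpm1 and Cd9 (adjusted p 0.0832 to 0.507) did not pass. DESeq2 did not call Zfpm1, Cd9 and Gp5 (adjusted p 0.0604 to 0.264), and batch as the block ended the call of Mmrn1 (adjusted p 0.0651).

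Of 32 tested erythroid genes 5 fell and none rose (10 and 0 unadjusted, 3 and 0 in DESeq2), against 1.72% of all tested genes called lower. Their median of −0.58 turned positive, up to 0.41, in batch C alone and in the MPP1 and MPP4 libraries alone. It also turned positive in the 4 libraries of shared ID numbers, and without MPP4 control 1 or HSC control 1. Apoe, a lipid carrier, stood at 45.8, 22.2, 12.5 and 36.2 CPM in MPP4 libraries 1 to 4, against 193 and 191 CPM in MPP1 libraries 1 and 2, and it held in all 20 alternatives (−3.05, SE 0.32, adjusted p = 8.67e-07). Tal1, a transcription factor of blood specification, stood at 82.4, 85.1, 105 and 84.4 CPM in MPP4 and 241 and 226 CPM in MPP1 (−1.12, SE 0.23, adjusted p = 0.00156), and Car2, a carbonic anhydrase, had a difference of −0.93. Gata1, a zinc-finger factor that both red cells and platelets need, stood at 1.22, 2.22, 0 and 12.1 CPM in MPP4 and 13.3 and 14.7 CPM in MPP1. Gata1 differed by −3.50 on the log2 scale (SE 0.78, adjusted p = 0.00643). Mfsd2b, a sphingosine-1-phosphate exporter of red cells, had 3 pooled counts in MPP4 and 21 in MPP1, and an MPP1 to MPP4 ratio of 20.1 (95% counting interval 5.99 to 105). It stood at 0, 0, 0.778 and 8.04 CPM in MPP4 and 12.6 and 7.36 CPM in MPP1, so that the groups overlapped and mean levels were 2.20 ± 3.91 CPM in MPP4 and 9.98 ± 3.70 CPM in MPP1 (SD, n = 4 and 2). On leaving out MPP4 control 2 the ratio was 11.7 for Mfsd2b, without MPP4 control 4 the ratio was 57.4 for Mfsd2b, and without MPP1 control 1 the ratio was 13.3 for Mfsd2b. The haemoglobin gene Hba-a1 stood at 22, 113, 28.8 and 16612 CPM in MPP4 and 10.4 and 10448 CPM in MPP1, high in 1 library of each population, and did not pass (adjusted p = 0.981). Erythroid calls lost were Tal1, Car2, Gata1 and Mfsd2b without MPP4 control 3 (adjusted p 0.0645 to 0.339), Tal1, Car2, Gata1 and Mfsd2b without MPP1 control 1 (adjusted p 0.179 to 0.516), Gata1 and Mfsd2b without MPP4 control 1 (adjusted p 0.115 to 0.145), and Gata1 and Mfsd2b without HSC control 1 (adjusted p 0.111 to 0.156). With no block over all 18 libraries Car2, Gata1 and Mfsd2b (adjusted p 0.108 to 0.611) did not pass. Not called by DESeq2 were Gata1 and Mfsd2b (adjusted p 0.290 to 0.663).

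**Figure D4:**
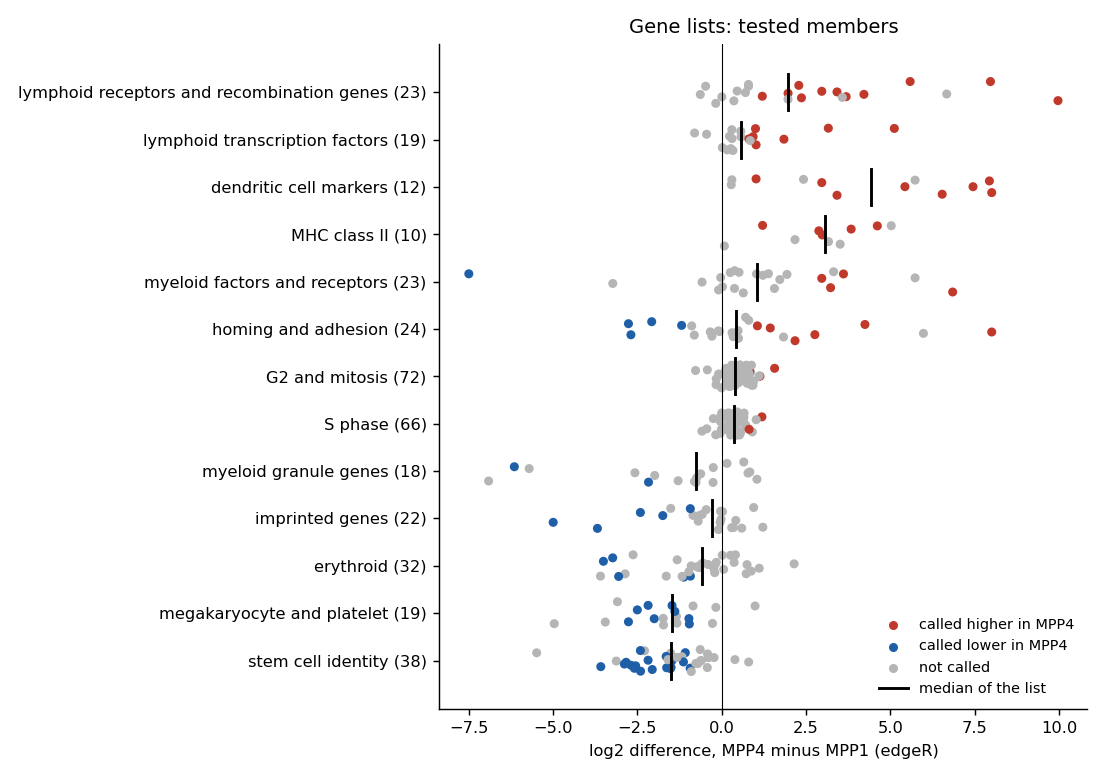
Log2 differences (MPP4 minus MPP1) of the tested members of 13 gene lists, the number of members in brackets, with called genes in red (higher in MPP4) or blue (lower) and the median of each list as a black line. The medians of the 2 lymphoid lists, the dendritic markers and MHC class II lie to the right of 0, the stem cell and megakaryocyte lists to the left, and the cell cycle lists form narrow clouds just above 0.

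Few cell cycle genes passed, while most had positive differences, against 5374 of all 10613 tested genes. Of 66 S phase genes 58 had a positive difference, 2 rose and none fell (9 and 0 unadjusted, 1 and 0 in DESeq2), with a median of 0.35. Of 72 genes of G2 and mitosis 65 had a positive difference, 3 rose and none fell (21 and 0 unadjusted, 1 and 0 in DESeq2), with a median of 0.41. Summed G2 and mitosis levels overlapped, at 7927 to 12950 CPM in MPP4, highest in MPP4 control 4, and 8213 and 9062 CPM in MPP1. Summed S phase levels did not, at 7310 to 9005 CPM in MPP4 and 5757 and 6519 CPM in MPP1. Members of a list can vary together between libraries. Among all tested genes 1.86% were called higher. Uhrf1, which brings Dnmt1 to newly copied DNA, stood at 118, 96.2, 158 and 149 CPM in MPP4 and 74.8 and 77.3 CPM in MPP1 (1.19, SE 0.27, adjusted p = 0.00476), the one call among 17 genes of the DNA methylation machinery, and Topbp1, a replication checkpoint protein, had a difference of 0.81. Kif23, a kinesin of cell division, stood at 108, 124, 159.6 and 221 CPM in MPP4 and 89.7 and 73.6 CPM in MPP1 (1.13, SE 0.25, adjusted p = 0.00363), and the spindle checkpoint kinase Ttk at 36.0, 59.8, 48.3 and 60.3 CPM in MPP4 and 15.6 and 22.1 CPM in MPP1. Ttk differed by 1.57 on the log2 scale (SE 0.39, adjusted p = 0.0122). Mki67, the proliferation marker, had a difference of 0.83, with overlapping groups. Of 27 G1 regulators 1 rose, Mycl, and 2 fell, Mycn and Cdkn1c (4 and 5 unadjusted, 0 and 2 in DESeq2). Cdkn1c, the inhibitor p57 linked to stem cell quiescence, stood at 9.16, 3.55, 7.78 and 4.02 CPM in MPP4 and 51.9 and 38.6 CPM in MPP1. Cdkn1c differed by −2.41 on the log2 scale (SE 0.45, adjusted p = 0.000683). Mycl, a Myc family member, had no count in MPP1 and was at least 6.74-fold higher. Cell cycle calls lost were Uhrf1, Topbp1, Ttk, Mki67, Mycn, Cdkn1c and Mycl without MPP4 control 3 (adjusted p 0.0539 to 0.236), Uhrf1, Topbp1, Kif23, Ttk, Mki67, Mycn, Cdkn1c and Mycl without MPP1 control 1 (adjusted p 0.0779 to 0.517), Uhrf1, Topbp1, Kif23 and Mki67 without MPP1 control 2 (adjusted p 0.0627 to 0.238), Topbp1, Kif23, Ttk and Mki67 without MPP4 control 4 (adjusted p 0.0510 to 0.193), Topbp1 and Mki67 without MPP4 control 1 (adjusted p 0.0714 to 0.0766), Topbp1 and Mki67 without HSC control 1 (adjusted p 0.0801 to 0.0810), and Mki67 without HSC control 2 (adjusted p 0.0539). Over all 18 libraries with no block Uhrf1, Topbp1, Kif23, Ttk, Mki67, Mycn and Mycl (adjusted p 0.0579 to 0.836) did not pass. DESeq2 did not call Topbp1, Ttk, Mki67 and Mycl (adjusted p 0.0860 to 0.995), and batch as the block ended the calls of Mki67 and Mycn (adjusted p 0.195 to 0.365). Without MPP1 control 1 the lower bound was 1.9 for Mycl.

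Imprinted genes, expressed from one parental copy, held 5 genes that fell and none that rose among 22 tested (8 and 1 unadjusted, 3 and 0 in DESeq2), with a median of −0.28. By comparison, 1.72% of all tested genes were called lower. Grb10, an adaptor that restrains insulin receptor signalling, stood at 12.2, 5.76, 7.78 and 8.04 CPM in MPP4 libraries 1 to 4, against 121 and 147 CPM in MPP1 libraries 1 and 2. No MPP4 library came near an MPP1 library, and the call held in all 20 alternatives (−3.68, SE 0.34, adjusted p = 3.64e-09). Phlda2, a small protein of the same chromosome region as Cdkn1c, stood at 0.611, 1.77, 0.778 and 0 CPM in MPP4 and 17.0 and 18.4 CPM in MPP1. Phlda2 differed by −4.99 on the log2 scale (SE 1.07, adjusted p = 0.00334). Zrsr1, which encodes a splicing factor, had a difference of −1.74, and Trappc9 one of −0.93. Imprinted genes that lost their calls were Phlda2, Cdkn1c, Zrsr1 and Trappc9 without MPP4 control 3 (adjusted p 0.0740 to 0.206), Phlda2, Cdkn1c, Zrsr1 and Trappc9 without MPP1 control 1 (adjusted p 0.102 to 0.380), Zrsr1 and Trappc9 without MPP1 control 2 (adjusted p 0.133 to 0.171), Trappc9 without MPP4 control 4 (adjusted p 0.101), Zrsr1 and Trappc9 without MPP4 control 1 (adjusted p 0.0791 to 0.0879), Zrsr1 and Trappc9 without HSC control 1 (adjusted p 0.0831 to 0.101), and Trappc9 without HSC control 2 (adjusted p 0.0547). Fitted to all 18 libraries with no block Zrsr1 and Trappc9 (adjusted p 0.247 to 0.472) did not pass. Not called by DESeq2 were Zrsr1 and Trappc9 (adjusted p 0.237 to 0.271), and not called with batch as the block was Trappc9 (adjusted p 0.112).

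Several of the strongest differences lay outside these lists. Slc18a2, the vesicular monoamine transporter (chromosome 19), had the smallest adjusted p of all genes. Its level was 5.50, 4.88, 5.45 and 16.1 CPM in MPP4 libraries 1 to 4, against 209.7 and 245 CPM in MPP1 libraries 1 and 2, with MPP4 control 4 the highest of its group and still far below MPP1 (−4.81, SE 0.33, adjusted p = 5.03e-12). Tie1, a receptor tyrosine kinase of endothelium and stem cells, stood at 62.3, 44.8, 59.9 and 44.2 CPM in MPP4 and 207 and 156 CPM in MPP1. Tie1 differed by −1.83 on the log2 scale (SE 0.23, adjusted p = 3e-06). Bgn, an extracellular proteoglycan, stood at 1.22, 2.66, 0.778 and 0 CPM in MPP4 and 34.8 and 36.8 CPM in MPP1 (−4.63, SE 0.63, adjusted p = 1.01e-05), and Slc7a8, an amino acid transporter, at 9.16, 7.09, 28.8 and 24.1 CPM in MPP4 and 134 and 156 CPM in MPP1. Slc7a8 differed by −2.27 on the log2 scale (SE 0.31, adjusted p = 1.56e-05). The scaffold gene Shank3 (−2.76, SE 0.40), the glycosyltransferase Csgalnact1 (−2.20, SE 0.32), the endocytic scaffold Itsn1 (−1.95, SE 0.29), Plxdc2 (−2.30, SE 0.36), Myct1 (−2.0, SE 0.28) and Sgms1, a sphingomyelin synthase (−1.33, SE 0.21), were lower as well. In the other direction Crip1, a small LIM domain protein, stood at 212, 189.7, 241 and 305 CPM in MPP4 and 36.3 and 35 CPM in MPP1. Crip1 differed by 2.84 on the log2 scale (SE 0.29, adjusted p = 3.63e-08). Adgrg3, an adhesion receptor of leukocytes, stood at 160.0, 464, 198 and 104 CPM in MPP4 and 28.2 and 16.6 CPM in MPP1 (2.82, SE 0.32, adjusted p = 3.19e-07), and the secreted protease inhibitor Cst3 at 1443, 654, 898 and 1414 CPM in MPP4 and 332 and 258 CPM in MPP1. Cst3 differed by 1.95 on the log2 scale (SE 0.26, adjusted p = 9.48e-06). Tmsb10, an actin-binding thymosin (2.05, SE 0.27), Slc35d3, a nucleotide sugar transporter relative (3.58, SE 0.45), the chemokine Ccl3 (4.28, SE 0.59) and the gene model BC035044 (2.98, SE 0.41) rose too. From this group the calls lost were Ccl3 without MPP4 control 3 (adjusted p 0.0757), and Ccl3 without MPP1 control 1 (adjusted p 0.155). When the ID block was dropped over all 18 libraries Itsn1 and Cst3 (adjusted p 0.0510 to 0.0564) did not pass, nor did Itsn1, Adgrg3 and Cst3 (adjusted p 0.0878 to 0.188) with batch as the block, and Slc18a2, Tie1, Bgn, Slc7a8, Shank3, Csgalnact1, Plxdc2, Myct1, Sgms1, Crip1, Tmsb10, Slc35d3 and BC035044 held in all 20 alternatives.

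**Figure D5:**
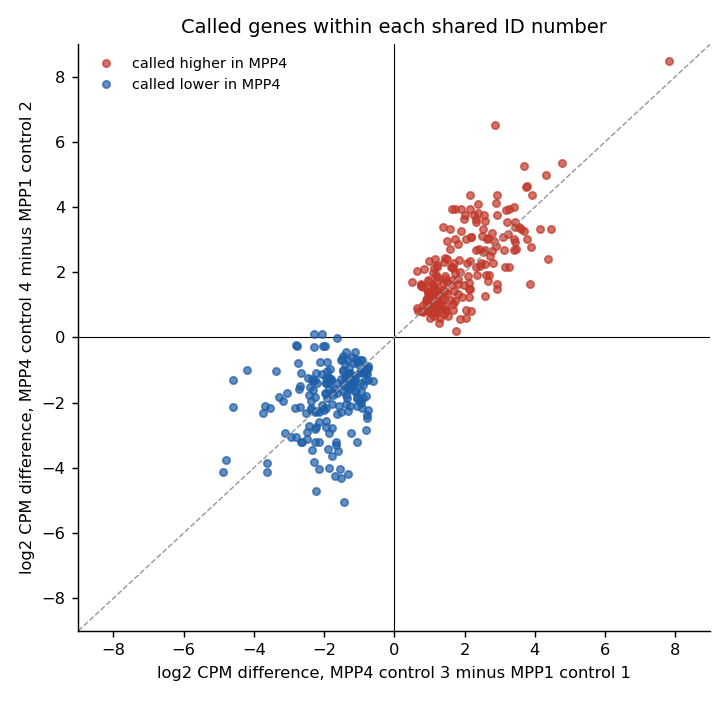
Log2 CPM difference (MPP4 minus MPP1) of the 380 called genes between MPP4 control 3 and MPP1 control 1 (x axis) and between MPP4 control 4 and MPP1 control 2 (y axis), with genes called higher in MPP4 in red, lower in blue and the line of equality dashed. All but Gimap8 and Mfsd2b lie in the lower left or upper right quadrant, a description of the libraries from which they were called.

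Of 29 tested nucleolar genes 0 were called in edgeR, with 0 at an unadjusted p under 0.05 and 0 in DESeq2, and a median of 0.04. Of 30 glycolysis and hypoxia genes 0 were called (1 higher and 4 lower unadjusted, 0 in DESeq2), and of 10 genes of the Bcl2 family 0 (1 higher unadjusted, 0 in DESeq2). Of 9 tested Hoxa and Hoxb genes 0 were called (1 lower unadjusted, 0 in DESeq2), with a median of −0.50. Among 60 nuclear genes of the respiratory chain Ndufa4 alone passed (1.09, SE 0.21, adjusted p = 0.000721), standing at 414, 596, 609 and 490.2 CPM in MPP4 and 261 and 252 CPM in MPP1. Among 9 tested mitochondrially encoded genes mt-Nd5 (−0.92, SE 0.23) and mt-Nd6 (−1.14, SE 0.30) fell, against 1.72% of all tested genes called lower, and the groups overlapped in mt-Nd5. Of 23 immediate-early genes Egr1 fell (−1.43, SE 0.34, adjusted p = 0.0160), and Btg2 (2.0, SE 0.48), Klf2 (1.51, SE 0.38) and Ier5 (1.32, SE 0.37) rose, with overlapping groups for Klf2. The share of all tested genes called higher was 1.86%. Among 32 interferon response genes Ifitm1 alone passed (−1.48, SE 0.32), with overlapping groups. In these lists the calls lost were mt-Nd5, mt-Nd6, Egr1, Btg2, Ier5 and Ifitm1 without MPP4 control 3 (adjusted p 0.113 to 0.508), Ndufa4, mt-Nd5, mt-Nd6, Egr1, Btg2, Klf2, Ier5 and Ifitm1 without MPP1 control 1 (adjusted p 0.118 to 0.654), mt-Nd5, mt-Nd6, Btg2, Klf2 and Ier5 without MPP1 control 2 (adjusted p 0.0822 to 0.302), Egr1, Btg2 and Klf2 without MPP4 control 4 (adjusted p 0.0504 to 0.333), mt-Nd5, mt-Nd6 and Ier5 without MPP4 control 1 (adjusted p 0.0777 to 0.140), mt-Nd5, mt-Nd6 and Ier5 without HSC control 1 (adjusted p 0.0696 to 0.139), and Ier5 without HSC control 3 (adjusted p 0.0556). With no block over all 18 libraries Ndufa4, mt-Nd5, mt-Nd6, Egr1, Btg2, Klf2, Ier5 and Ifitm1 (adjusted p 0.0939 to 0.931) did not pass. Batch as the block ended the calls of mt-Nd6, Egr1, Btg2, Klf2 and Ier5 (adjusted p 0.243 to 0.770), and DESeq2 those of mt-Nd6, Btg2 and Ier5 (adjusted p 0.0545 to 0.256).

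The same comparison in Dnmt1 mutant marrow, which shares none of these 6 libraries, called 654 genes (6.16% of those tested). Of the 380 control calls 377 had the same sign there, against 64.9% of all tested genes, and 255 were called in both, which is 67.1% of the control calls and 39% of the mutant calls. Satb1 differed by 3.20 in mutants and 3.16 in controls, Flt3 by 3.92 in mutants and 3.42 in controls, Grb10 by −5.47 in mutants and −3.68 in controls, and Slc18a2 by −6.73 in mutants and −4.81 in controls. For the control minus mutant difference of MPP4 versus MPP1, 0 of 10613 genes (0%) passed in edgeR, 468 had an unadjusted p under 0.05, and DESeq2 called 2.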

How the data were processed

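The deposited values are estimated counts per gene, from CEL-Seq2 libraries of cells sorted into lysis buffer per the labels' protocols. The values themselves are whole numbers, not rounded here, on an uneven grid like that of a correction for colliding molecule tags, with a ceiling of 36909 that 4 values in the 6 libraries reached. Per the submitters' processing notes the build was mm10, and R 3.4.0 and DESeq2 were used. No source used here names the aligner, the counting program or its annotation, or says whether strand was used. The tables hold 29717 genes, 28347 of whose symbols matched GENCODE vM21.

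Counts were scaled by TMM and fitted in edgeR 4.0.16 (R 4.3.3, quasi-likelihood, robust) over all 18 libraries with population and genotype as groups and the ID number as a block. Genes passed edgeR's count filter at a minimum count of 10, leaving 10613, and a call is a Benjamini-Hochberg adjusted p under 0.05. Residual degrees of freedom were 6. SE is the difference divided by the square root of its F. For a gene without a count in MPP1 the floor was 3 counts over the group. At 3 or fewer pooled counts in MPP1, a fall in MPP4 could hardly have been measured. The totals limit the precision of low genes most in MPP4 control 4. On simulated data for MPP4 versus MPP1 controls with 9966 genes, the fit recovered 25 of 100 genes changed by 1 on the log2 scale and 77 of 100 changed by 2, with 4 false calls among 106. The simulated libraries shared 1 profile and a trended dispersion, with no ID number, batch or population effect beyond the changed genes. These rates therefore do not measure recovery or false calls under the differences among the real libraries. Alternatives were other blocks and subsets, RLE scaling, DESeq2 1.42.0, other count filters and leaving out libraries.

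The rule for named genes took Flt3, Cd48, Cd34, Slamf1, Kit, Ly6a, Procr, Satb1, Il7r, Dntt, Mpo, Mecom, Gata1 and Dnmt1, the 15 genes of smallest adjusted p in each direction with the same sign within both shared ID numbers, and at most 3 called genes per list, those of smallest adjusted p. Other genes given with values were chosen after their values were seen. The members and lists were chosen with earlier results of these data known. Libraries of a group differed by more than counting error, with chi-square divided by its degrees of freedom between 6.96 and 42.3, so none was merged. Results for some genes are not reported here.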

Additional observations from a re-analysis of the deposited data

Results flagged for a closer look

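Among 177 sets of 4 MPP4 values, 18 had 1 library set far apart from the others by Dixon's test. The nominal rate of that test, about 1 in 20, assumes independent normal values. These sets are CPM of genes and of lists that overlap, some of few counts. The 18 are therefore not read as an excess over chance. MPP4 control 4 was the high library for 8 of the 18. Summed erythroid transcripts stood there at 45720 CPM, against 707.7 to 1018 CPM in the other MPP4 libraries. Summed neutrophil markers stood at 5525 CPM, against 10.1 to 17.7 CPM, and summed plasma cell markers at 349.6 CPM, against 70.5 to 113 CPM. Irf8, the dendritic and monocyte factor, stood at 599 CPM, against 209 to 257 CPM, and Klf2, a factor of resting lymphocytes, at 149 CPM, against 21.4 to 29.6 CPM. Slc18a2 stood at 16.1 CPM, against 4.88 to 5.50 CPM, and Mfsd2b at 8.04 CPM, against 0 to 0.778 CPM. The transglutaminase gene Tgm2 stood at 24.1 CPM, against 0.778 to 4.27 CPM, and Txnip was low at 221 CPM, against 335 to 344 CPM. In MPP4 control 4 Mfsd2b had only 2 counts and Tgm2 only 6.

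MPP4 control 1 was high in granule and monocyte genes. Prtn3 stood there at 245 CPM, against 85.6 to 106 CPM in the other MPP4 libraries. Elane stood at 47.6 CPM, against 0 to 3.10 CPM, Ms4a3 at 2.44 CPM, against 0 CPM, and Ms4a6c at 18.3 CPM, against 7.78 to 8.42 CPM. MPP4 control 2 was high in Ly6a, at 159 CPM against 40.2 to 44.0 CPM, in Il12a, at 339 CPM against 108 to 146 CPM, and in Zrsr1, at 17.7 CPM against 7.78 to 8.55 CPM. MPP4 control 3 was high in Tal1, at 105 CPM against 82.4 to 85.1 CPM, and in Angpt1, at 302 CPM against 181 to 197 CPM.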

How the results depend on the processing

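The 380 calls became 161 with no replicate block over all 18 libraries and 199 with no block in the 6 control libraries. They became 221 with batch as the block and 200 in DESeq2. Leaving out 1 library gave from 94 (without MPP1 control 1) to 376 (without HSC control 3). Same-numbered libraries deviated together with a correlation of 0.187 between MPP4 control 3 and MPP1 control 1 and 0.231 between MPP4 control 4 and MPP1 control 2. Over all same-numbered pairs of the series the correlation ranged from 0.067 to 0.42. Libraries of different numbers were not compared in this way, so these values have no baseline and the pairing was taken from the numbers. RLE scaling gave 382 calls, batch C alone 425, the MPP libraries alone 405, the 4 libraries of shared ID numbers 302, no filter 447 and a stricter filter 304. An alternative chosen after the data were seen, without both MPP4 control 4 and MPP1 control 2, gave 279. For the control minus mutant difference, DESeq2 called 2 genes and leaving out 1 library gave 0 to 1. Of the named genes that were called, 30 passed in each of the 20 alternatives that tested them and 97 lost their call in at least 1, and none changed sign, while 60 were lost with no block over all 18 libraries, 48 with no block in the 6 controls, 38 with batch as the block and 36 in DESeq2. Sign turned for genes that were not called: Ly6a was 0.16 with no block in both fits (0.158 over 18 libraries and 0.163 over 6), Hlf ranged from −0.52 to 0.11 and Mpo from −1.79 to 0.39 over the left-out libraries, with Hlf positive without MPP1 control 1 and Mpo positive without MPP1 control 1 or MPP4 control 4 (0.31). The cause was not tested. The neutrophil list's median of −0.76 turned to 0.86 without MPP1 control 2.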

Other observations

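Genes outside the lists, chosen after their values were seen, also separated the populations. Ddx4, an RNA helicase best known from germ cells, had 249 pooled counts in MPP4 and 3 in MPP1, a ratio of 29 (95% counting interval 9.79 to 141), and stood at 51.9, 44.8, 41.3 and 40.2 CPM in MPP4 and 1.48 and 1.84 CPM in MPP1. Kcng1, a potassium channel subunit, stood at 10.4, 73.6, 37.4 and 20.1 CPM in MPP4 and 0 and 0 CPM in MPP1, at least 27.4-fold higher in MPP4. Gria2, a glutamate receptor subunit best known from neurons, had 265 pooled counts in MPP4 and 2 in MPP1, a ratio of 46.2 (95% counting interval 12.7 to 384). The antibody variable segments Ighv1-85 and Ighv1-78 had transcript too. Ighv1-85 had 406 pooled counts in MPP4 and 1 in MPP1, a ratio of 142 (95% counting interval 25.3 to 5610), and Ighv1-78 was at least 23.3-fold higher. Cd180, a relative of Toll-like receptors on B cells, stood at 33.6, 23.9, 59.2 and 28.1 CPM in MPP4 and 8.15 and 0 CPM in MPP1 (3.16, SE 0.53, adjusted p = 0.000150), and Nlrc3, a restraint on innate signalling, at 46.4, 66.5, 80.2 and 44.2 CPM in MPP4 and 12.6 and 7.36 CPM in MPP1 (2.49, SE 0.41, adjusted p = 0.000119). Of these calls, lost were Kcng1, Gria2, Ighv1-78 and Nlrc3 without MPP4 control 3 (adjusted p 0.134 to 0.357), and Ddx4, Kcng1, Gria2, Ighv1-78 and Nlrc3 without MPP1 control 1 (adjusted p 0.0777 to 0.235). DESeq2 did not call Gria2, Ighv1-85 and Ighv1-78 (adjusted p 0.124 to 0.945). On leaving out MPP4 control 2 the lower bound was 13.9 for Kcng1, and without MPP1 control 1 the lower bounds were 7.88 for Kcng1, 8.84 for Gria2, 13.6 for Ighv1-85 and 6.68 for Ighv1-78.

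Vdr, Klf9 and Ikzf4 were among the genes lower in MPP4. Vdr, the vitamin D receptor, stood at 6.11, 10.2, 7.78 and 0 CPM in MPP4 and 42.2 and 35 CPM in MPP1. Vdr differed by −2.93 on the log2 scale (SE 0.48, adjusted p = 0.000125) and passed in all 20 alternatives. Klf9, a target of glucocorticoid signalling, stood at 17.7, 6.65, 17.1 and 24.1 CPM in MPP4 and 99.3 and 73.6 CPM in MPP1 (−2.21, SE 0.35, adjusted p = 7.49e-05). Ikzf4, an Ikaros family factor, had 3 pooled counts in MPP4 and 42 in MPP1, and an MPP1 to MPP4 ratio of 40.1 (95% counting interval 12.8 to 202). Without MPP4 control 2 the ratio was 23.5 for Ikzf4, and without MPP4 control 3 the ratio was 91.9 for Ikzf4. Klf9 (adjusted p 0.150) and Ikzf4 (0.0618) were lost without MPP1 control 1.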
